A study of Arabidopsis thaliana with 12 samples.

Results

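The Arabidopsis thaliana line labelled vtc2/OE-VTC2 L15, here OE, was compared with the mutant vtc2-4, here vtc2, in which it was made. A gene entered the comparison when its FPKM (fragments scaled to transcript length and to the mapped fragments of a library) reached 1 in 3 or more of the 6 libraries of these genotypes. This rule kept 16931 of 33618 gene IDs in the deposited table. Each genotype had 3 libraries, each from an independent pool of 8 rosettes, and the other 6 of the 12 libraries in the series were from wild type (WT) and from the mutant vtc4-4, here vtc4. All plants were 4 weeks old and untreated. They grew at 22 °C in days of 8 h light, with 300 μmol of photons per square metre and second, and 16 h darkness, and were frozen 30 min after lights on. OE is 1 transgenic line on a vtc2 background, so it differs from vtc2 by the transgene and by whatever else came with that line. The sources used here do not give the promoter that drives VTC2 in it. The title of the series ties ascorbate to auxin biosynthesis, and OE against vtc2 asks which transcripts differ when VTC2 is supplied to the vtc2 mutant.

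Ascorbate (vitamin C) is made in leaves mainly from GDP-mannose through L-galactose. VTC2 encodes GDP-L-galactose phosphorylase, which catalyses the first committed step of that route and is regarded as its main control point, and VTC5 encodes a close copy of the enzyme. Ascorbate is the substrate of ascorbate peroxidases, which remove hydrogen peroxide in the chloroplast and cytosol, and it is a cofactor of violaxanthin de-epoxidase in photoprotection. Mutants of VTC2 are known for a low ascorbate content and for salicylate-dependent defence gene expression in unchallenged leaves.

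Differences are given as OE minus vtc2 on the log2(FPKM + 1) scale, where changes of genes with low values come out too small. They were tested with limma in a model of all 12 libraries, with Benjamini-Hochberg adjustment over all genes tested, and called genes had an adjusted p under 0.05. Pools are biological replicates by the labels, and the tests are two-sided. A total of 912 of 16931 genes were called (5.39% of those tested), of which 526 were higher in OE (3.11%) and 386 were lower (2.28%). Most differences were small: the median fold was 1.3 among the higher and 1.4 among the lower genes, and 32 and 63 genes differed by at least 2-fold. Of the 912 called genes 891 had no overlap between their 3 OE and 3 vtc2 values, against 27.6% of all tested genes. Absence of overlap therefore adds little to a call. The split by direction depended on scaling. With FPKM columns rescaled to TPM (the same total in every library), 335 genes were higher and 563 lower, so 37.3% of calls were higher in place of 57.7%, and the median over all tested genes moved from -0.003 to -0.053.

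The count rested on a few libraries and on the spread borrowed from WT and vtc4. When OE replicate 1 was left out it was 147, and when OE replicate 3 was left out 375. Leaving out vtc2 replicate 2 gave 172, vtc2 replicate 3 gave 219 and vtc2 replicate 1 gave 1329. With the OE and vtc2 libraries alone in the model 154 genes were called, 152 of them among the 912. Apart from VTC2, 69 called genes were chosen for naming here. Of these, 47 were not called with the 6 libraries alone. The 7 that kept their call in every alternative that tested them were MRD1, HEI10, AT1G64795, CPK27, AT3G05955, AT5G11330 and SQP1. Depth is unknown from FPKM values. FPKM sums, which are no measure of depth, were 684606 to 695840 in vtc2 and 706783 to 736841 in OE. In the rosette marker list, CAB3 and GAPA stood at 2645 to 3757 and 2652 to 3328 FPKM over the 12 libraries, while RBCS1A, RCA and LHCB1.3 were listed at 0 in all 12, which in this table may be a failed estimate. Of 7 floral markers 0 passed the filter, and of 8 root markers PYK10 alone did, at 24.8 to 31.2 FPKM in vtc2 and 18.6 to 21.3 in OE (-0.44, adjusted p = 0.0965).

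**Figure D1:**
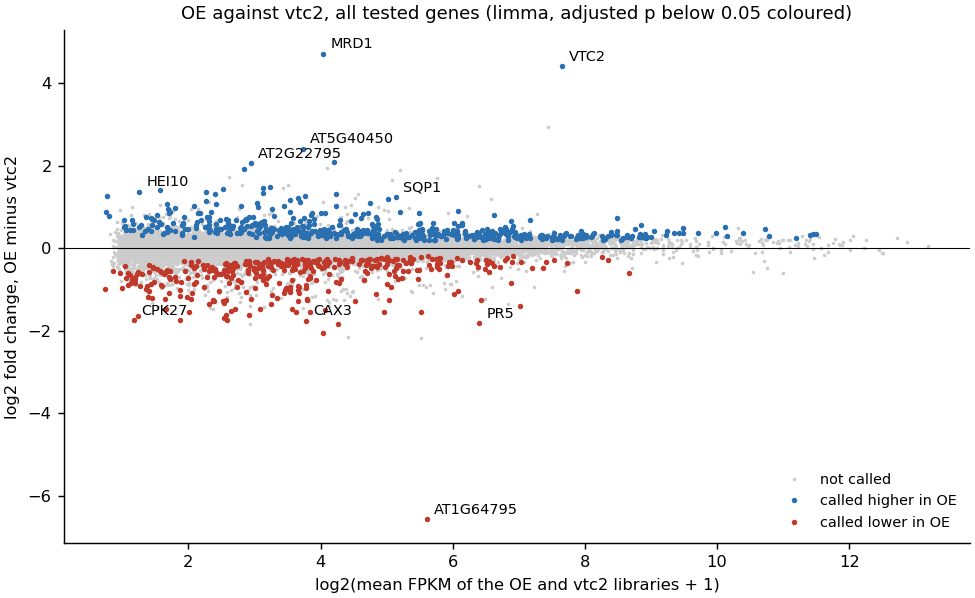
Each point is 1 of the 16931 tested genes, with log2 of its mean FPKM over the OE and vtc2 libraries plus 1 on the x axis and its log2 fold change, OE minus vtc2, on the y axis. Coloured points are the 526 genes called higher and the 386 called lower in OE. MRD1 and VTC2 stand above 4, and AT1G64795, listed at 0 in the OE libraries, has a position that depends on the pseudocount.

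VTC2 itself (AT4G26850; TAIR10.1 chromosome 4, 13498956 to 13501701, minus strand) was at 16.4, 20.3 and 14.8 FPKM in vtc2 and at 411, 366 and 372 FPKM in OE. It was at 745, 810 and 900 in WT and at 719, 781 and 850 in vtc4. All 3 OE libraries lay far above vtc2 and below every WT and vtc4 library, although the label calls the line an overexpressor. The difference from vtc2 was 4.41 (SE 0.11, limma adjusted p = 2.29e-10). Whether all transcripts of the transgene were counted in these values was not tested.

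The rest of the ascorbate route moved little. GLDH, the mitochondrial dehydrogenase of the last step, was at 7.06, 7.01 and 7.02 FPKM in vtc2 and at 7.91, 9.14 and 9.24 in OE. The groups did not overlap, and the gene was higher in OE (0.28, SE 0.071, adjusted p = 0.0418). VTC5 was at 23.1, 24.1 and 22.1 in vtc2 and at 19.1, 19.1 and 19.6 in OE. Its groups did not overlap either, with OE lower (-0.25, SE 0.062, adjusted p = 0.0386). Of the 10 tested biosynthesis genes, 2 were called higher (VTC2 and GLDH) and 1 lower (VTC5). This was 30.0% of the list, with VTC2, the gene supplied in OE, included, against 5.39% of all tested genes. The median was 0.10 against -0.003 over all tested genes. GME, the epimerase acting just before VTC2, and GALDH, the L-galactose dehydrogenase, had differences of 0.23 (adjusted p = 0.0651) and 0.21 (0.0865). VTC4, the L-galactose-1-phosphate phosphatase, had -0.31 (0.0778), and VTC1, the GDP-mannose pyrophosphorylase, -0.06 (0.564). The calls of GLDH and VTC5 each ended without any 1 of 10 libraries, with adjusted p of up to 0.123 and 0.142. The call of GLDH also ended on the TPM scale (0.104), and that of VTC5 with quantile normalization (0.0548).

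MIOX1 stood out among regulators and side routes. It encodes a myo-inositol oxygenase of a proposed minor route to ascorbate. MIOX1 was at 1.75, 1.55 and 2.07 FPKM in vtc2 and at 4.85, 4.81 and 4.44 in OE. Every OE library was above every vtc2 library (1.03, SE 0.12, adjusted p = 0.00126), and WT (4.2, 3.27 and 3.44) lay between them. IMPL1, annotated as an inositol monophosphatase-like gene, was higher as well, at 30.7 to 31.8 FPKM in vtc2 and 36.6 to 40.7 in OE (0.29, SE 0.057, adjusted p = 0.0174). These were the 2 calls among 14 tested genes (14.3%, against 5.39% of all tested genes), and 0 were lower. IMPL1 lost its call without vtc2 replicate 2, vtc2 replicate 3 or OE replicate 1 (adjusted p up to 0.0831).

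The ascorbate-glutathione cycle, which regenerates ascorbate from its oxidized forms, held 3 calls among 22 tested genes (13.6%, against 5.39% of all tested genes). DHAR3, the chloroplast dehydroascorbate reductase, was at 167, 165 and 160 FPKM in vtc2 and at 201, 203 and 185 in OE. MDAR6, the monodehydroascorbate reductase of chloroplasts and mitochondria, was at 24.5, 24.9 and 25.04 in vtc2 and at 29.9, 28.7 and 32.0 in OE. For both genes all OE values were above all vtc2 values, with differences of 0.26 (SE 0.058, adjusted p = 0.0266) and 0.27 (SE 0.055, adjusted p = 0.0189). AT4G39830, annotated as a cupredoxin family protein and listed with the ascorbate oxidases, was lower, at 2.39 to 4.19 in vtc2 and 0.819 to 2.07 in OE (-0.74, SE 0.19, adjusted p = 0.0398). The cycle had 18 positive and 4 negative differences and a median of 0.09 (0.032 on the TPM scale). None of the 7 tested ascorbate peroxidase genes was called by limma. Averaged over the list and set against WT, both genotypes overlapped, with vtc2 at -0.15, 0.01 and 0.04 and OE at 0.01, 0.04 and -0.05. The calls of DHAR3 and MDAR6 each ended without vtc2 replicate 2, vtc2 replicate 3, OE replicate 1 or 1 further OE library (up to 0.112 and 0.075). That of AT4G39830 ended without any 1 of 9 libraries (up to 0.128). On the TPM scale MDAR6 had 0.0759, and with quantile normalization DHAR3 had 0.0596.

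Other antioxidant enzymes had 6 calls among 21 tested genes (28.6%, against 5.39% of all tested genes), all higher in OE. FSD1, the plastid iron superoxide dismutase, was at 605, 610 and 572 FPKM in vtc2 and at 906, 884 and 730 in OE. CAT2, the main leaf catalase of photorespiration, was at 1164, 1231 and 1115 in vtc2 and at 1600, 1562 and 1401 in OE. PRXQ, a thylakoid peroxiredoxin, was at 224, 226 and 213 in vtc2 and at 284, 277 and 283 in OE. In all 3 genes the lowest OE library was above the highest vtc2 library. The differences were 0.49 (SE 0.10, adjusted p = 0.0227) for FSD1, 0.38 (SE 0.075, adjusted p = 0.0181) for CAT2 and 0.35 (SE 0.068, adjusted p = 0.0174) for PRXQ. AT3G52960, a thioredoxin superfamily protein listed as a type II peroxiredoxin, was at 83.6 to 88.4 in vtc2 and 104 to 123 in OE (0.38, SE 0.078, adjusted p = 0.0198). The 2-Cys peroxiredoxin gene 2CPA (0.31) and the reductase gene NTRC (0.20) were the other 2. The list median was 0.13, and the mean over the list, as a difference from WT, was -0.16, -0.14 and -0.19 in vtc2 and -0.03, -0.03 and -0.05 in OE. Of the 6 calls, 0 were left without OE replicate 1 or without vtc2 replicate 3 and 1 without vtc2 replicate 2. On the TPM scale 5 were called higher and 2 lower. CAT2 shares 95 bases with a gene on the opposite strand.

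Photoprotection genes were positive in 12 of 12 and 2 were called (16.7%, against 5.39% of all tested genes), both higher. NPQ1, the violaxanthin de-epoxidase, was at 35.0, 31.3 and 30.9 FPKM in vtc2 and at 42.2, 41.5 and 38.3 in OE. BETA-OHASE 2, a beta-carotene hydroxylase, was at 58.8, 57.4 and 53.6 in vtc2 and at 69.9, 71.8 and 84.9 in OE. Neither gene overlapped between the genotypes, with differences of 0.32 (SE 0.082, adjusted p = 0.0425) and 0.41 (SE 0.088, adjusted p = 0.0236). The median of the list was 0.25 (0.15 with quantile normalization), and 8 of its 12 genes had no overlap, against 27.6% of all tested genes. As a difference from WT, the mean over the list ran from -0.36 to -0.30 in vtc2 and from -0.14 to -0.06 in OE. None of the 2 calls was left without OE replicate 1, OE replicate 3, vtc2 replicate 2 or vtc2 replicate 3, with highest adjusted p of 0.153 for NPQ1 and 0.0844 for BETA-OHASE 2. NPQ1 shares 464 bases with SYP111 on the opposite strand, and its call also ended on the TPM scale (0.0644).

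Photosynthesis genes had 4 of 33 called (12.1%, against 5.39% of all tested genes), all higher. They were SBPASE of the Calvin cycle, PETC (the Rieske protein), DRT112 (plastocyanin) and RBCS1B (a small Rubisco subunit). SBPASE was at 762, 727 and 689 FPKM in vtc2 and at 971, 918 and 933 in OE, without overlap (0.37, SE 0.066, adjusted p = 0.012). PETC went from 1587 ± 31.4 to 1938 ± 113 FPKM (SD, n = 3 each), DRT112 from 2542 ± 92.1 to 3227 ± 165 and RBCS1B from 2398 ± 121 to 3008 ± 134, with adjusted p of 0.0385, 0.0423 and 0.0446. RBCS1B is 91.6% identical to RBCS3B over 754 bases, so reads may be split between them. The median of the list was 0.12 and was 0.019 with quantile normalization and 0.067 on the TPM scale. The call of PETC ended with quantile normalization (0.0508). Without OE replicate 1, vtc2 replicate 2 or vtc2 replicate 3 the number called was 0, and without OE replicate 3 or vtc4 replicate 1 it was 1.

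**Figure D2:**
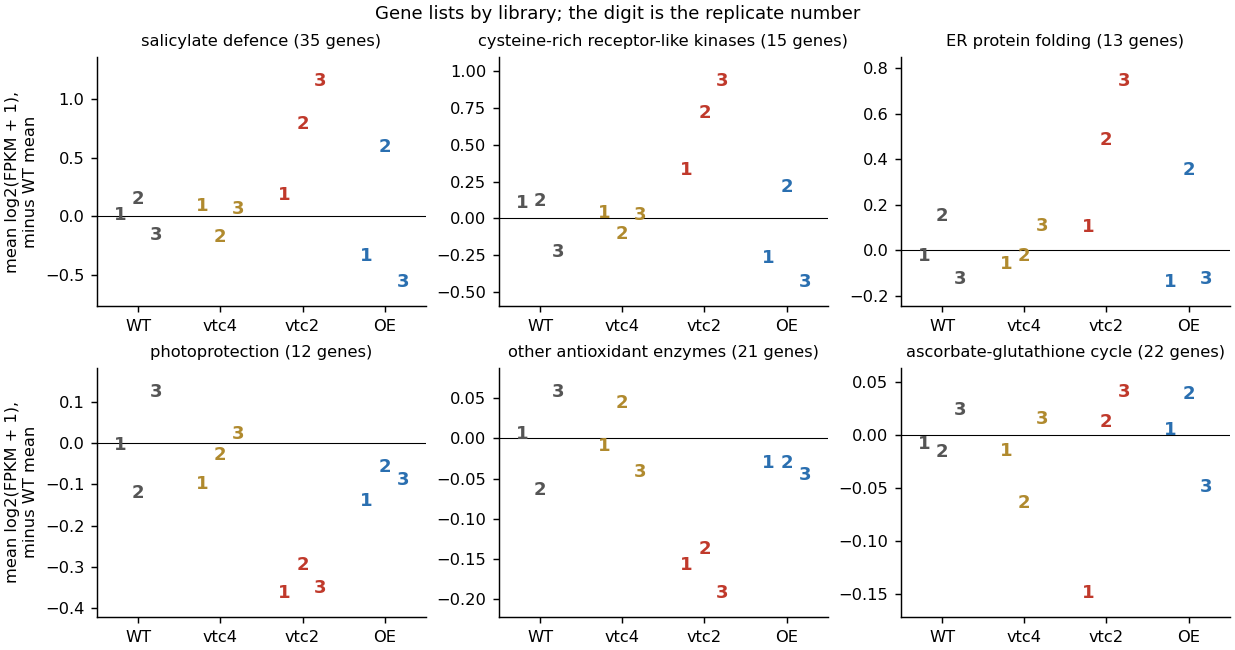
Each digit is 1 library and its replicate number. The y axis is the mean log2(FPKM + 1) of the tested genes of a list minus its mean in WT. OE and vtc2 separate for photoprotection, other antioxidant enzymes and the receptor-like kinases, and overlap for salicylate defence, where OE replicate 2 (0.59) lies above vtc2 replicate 1 (0.19).

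Salicylate defence genes were among the falls. Of 35 tested genes 34 had negative differences, 9 were called lower (25.7%, against 2.28% of all tested genes) and 0 higher. The median was -0.81. ICS1, the isochorismate synthase that makes most defence salicylate (annotated as EDS16), was at 13.3, 14.2 and 24.6 FPKM in vtc2 and at 3.88, 7.37 and 4.51 in OE. PR5, a thaumatin-like pathogenesis-related protein, was at 62.4, 151 and 184 in vtc2 and at 27.8, 45.3 and 29.8 in OE. Both were lower in each OE library than in any vtc2 library, by -1.54 (SE 0.21, adjusted p = 0.0036) and -1.82 (SE 0.33, adjusted p = 0.0129). DMR6, which hydroxylates salicylate, was at 88.1 to 144 in vtc2 and 39.5 to 70.4 in OE (-1.25, SE 0.22, adjusted p = 0.0118). AT5G10760, an aspartyl protease family gene, was at 40.2 to 91.3 and 18.0 to 29.6 (-1.55, SE 0.28, adjusted p = 0.0121). The other 5 called genes were PBS3, which conjugates isochorismate, the ICS1 regulators SARD1 and CBP60G, the transcription factor WRKY46 and the EDS1 partner SAG101, with differences from -1.48 to -0.51. The whole-rosette RNA cannot tell fewer cells expressing these genes from less RNA in each cell.

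The vtc2 and OE libraries were uneven in this group. PR1, chosen here after its values were seen, was at 38.02, 106 and 128 FPKM in vtc2 and at 22.5, 103 and 18.7 in OE, so OE replicate 2 lay with the higher vtc2 libraries (-1.16, SE 0.58, adjusted p = 0.251). The mean over the list, as a difference from WT, was 0.19, 0.79 and 1.15 in vtc2 and -0.34, 0.59 and -0.56 in OE, so the genotypes overlapped, while the WT libraries ranged from -0.16 to 0.15. Without OE replicate 2, 27 of the 35 genes were called lower, and without vtc2 replicate 1, 17. Without OE replicate 1 or without vtc2 replicate 2 it was 1, without vtc2 replicate 3 or OE replicate 3 it was 4, and with the 6 libraries alone 0. The call of ICS1 held without each library in turn (up to 0.0229). Those of PR5, DMR6 and AT5G10760 ended without vtc2 replicate 2 or OE replicate 1 (up to 0.0622, 0.0573 and 0.0589).

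Cysteine-rich receptor-like kinases (CRKs) are a family of membrane kinases with many members that respond to pathogens and salicylate. They gave 7 calls among 15 tested genes (46.7%, against 5.39% of all tested genes), all lower in OE. Sequences are shown for 3 promoters of the falling defence genes that hold a W box, the element bound by WRKY factors, and for 1 without it. They are the 250 bases before the annotated start in RefSeq's TAIR10.1, written 5′ to 3′ on the strand of the gene, with a W box (TTGACC or TTGACT, or its reverse complement) in capitals. CRK4 is chr3:16866262-16866511 on the minus strand, CRK36 chr4:2234690-2234939 on the minus strand, PR5 chr1:28177420-28177669 on the plus strand and CRK7 chr4:12125414-12125663 on the plus strand.
CRK4: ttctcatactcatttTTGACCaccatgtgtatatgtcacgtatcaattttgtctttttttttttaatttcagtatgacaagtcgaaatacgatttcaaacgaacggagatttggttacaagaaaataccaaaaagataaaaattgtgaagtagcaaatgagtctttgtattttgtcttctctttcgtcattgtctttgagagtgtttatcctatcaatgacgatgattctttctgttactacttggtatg
CRK36: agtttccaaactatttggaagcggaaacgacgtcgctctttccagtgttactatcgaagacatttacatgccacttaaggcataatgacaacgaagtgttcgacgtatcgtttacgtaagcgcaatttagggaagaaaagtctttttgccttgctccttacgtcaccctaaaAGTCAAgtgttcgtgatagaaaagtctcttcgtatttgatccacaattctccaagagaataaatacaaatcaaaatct
PR5: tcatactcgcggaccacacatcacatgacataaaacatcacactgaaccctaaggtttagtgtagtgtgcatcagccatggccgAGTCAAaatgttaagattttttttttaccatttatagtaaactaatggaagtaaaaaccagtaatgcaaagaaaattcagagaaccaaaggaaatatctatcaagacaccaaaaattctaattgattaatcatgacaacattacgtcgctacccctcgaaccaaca
CRK7: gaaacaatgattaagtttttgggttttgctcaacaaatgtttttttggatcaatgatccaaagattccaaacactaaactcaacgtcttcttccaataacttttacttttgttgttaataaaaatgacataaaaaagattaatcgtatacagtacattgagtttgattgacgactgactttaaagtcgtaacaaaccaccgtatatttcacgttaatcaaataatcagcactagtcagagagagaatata

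The boxes lie 235 bases before the start of CRK4, 78 before that of CRK36 and 166 before that of PR5. A W box was present in 9 of the 15 CRK windows (60.0%), in 6 of 35 salicylate defence windows (17.1%) and in 28.0% of 16827 windows of tested genes. Among called genes the share was 42.1% of those lower and 26.1% of those higher in OE. Other elements were searched, of which the as-1 core TGACG alone is described. Each of the rest was in 0 to 2 of the 15 CRK windows. The as-1 core was searched on both strands and cannot use the same TGAC letters as a W box. The core was in 9 of 15 CRK windows (60.0%), in 22.9% of salicylate defence windows and in 19.4% of all. Among called genes its share was 24.9% of those lower and 23.4% of those higher in OE. These are letter matches in a short window and are not evidence of binding.

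CRK4 was at 36.0, 45.7 and 53.1 FPKM in vtc2 and at 16.8, 23.5 and 15.1 in OE. CRK7 was at 5.60, 7.97 and 12.4 in vtc2 and at 1.72, 3.47 and 2.07 in OE. CRK36 was at 4.64, 7.71 and 9.46 in vtc2 and at 1.56, 3.74 and 1.69 in OE. In each of the 3 genes every OE library was below every vtc2 library, with OE replicate 2 the highest of the OE libraries and vtc2 replicate 1 the lowest of the vtc2 libraries. The differences were -1.25 (SE 0.19, adjusted p = 0.00731), -1.47 (SE 0.25, adjusted p = 0.0109) and -1.33 (SE 0.24, adjusted p = 0.0138). CRK13 was lower too (2.24 to 5.35 in vtc2, 0.545 to 1.17 in OE, -1.24, SE 0.22, adjusted p = 0.0117), though 826 of its bases are 96.2% identical to CRK22, so reads may be shared. CRK5, CRK6 and CRK37 were the other 3 called, from -1.54 to -0.71. The median of the list was -0.73, and its mean relative to WT did not overlap between vtc2 (0.33, 0.72 and 0.93) and OE (-0.27, 0.21 and -0.43). The number called was 1 without OE replicate 1 and 1 with the 6 libraries alone, 3 without vtc2 replicate 2, 4 without vtc2 replicate 3 and 11 without OE replicate 2. The call of CRK4 held without each library (up to 0.0409). That of CRK7 and that of CRK13 ended without OE replicate 1 (0.0538 and 0.0523), and that of CRK36 also without vtc2 replicate 2 or 3 (up to 0.0651).

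Genes for protein folding in the endoplasmic reticulum had 12 negative differences among 13, and a median of -0.40. Of these genes 2 were called (15.4%, against 5.39% of all tested genes), both lower. PDIL1-2, a protein disulfide isomerase, was at 17.42, 24.8 and 29.7 FPKM in vtc2 and at 11.2, 17.8 and 12.2 in OE. BIP2, the Hsp70 chaperone of the endoplasmic reticulum, was at 32.6, 44.0 and 56.7 in vtc2 and at 20.4, 33.4 and 23.7 in OE. Both genes overlapped between the genotypes through OE replicate 2, with differences of -0.76 (SE 0.18, adjusted p = 0.0351) and -0.75 (SE 0.20, adjusted p = 0.0496). BIP2 is 97.2% identical to BIP1 over 2122 bases, so its value is uncertain. None of the 2 calls was left without OE replicate 1, OE replicate 3, vtc2 replicate 2, vtc2 replicate 3 or vtc4 replicate 2, and 6 genes were called without OE replicate 2. Its mean as a difference from WT had OE replicate 2 above vtc2 replicate 1, as salicylate defence did, at 0.10, 0.48 and 0.74 in vtc2 and -0.14, 0.35 and -0.13 in OE.

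**Figure D3:**
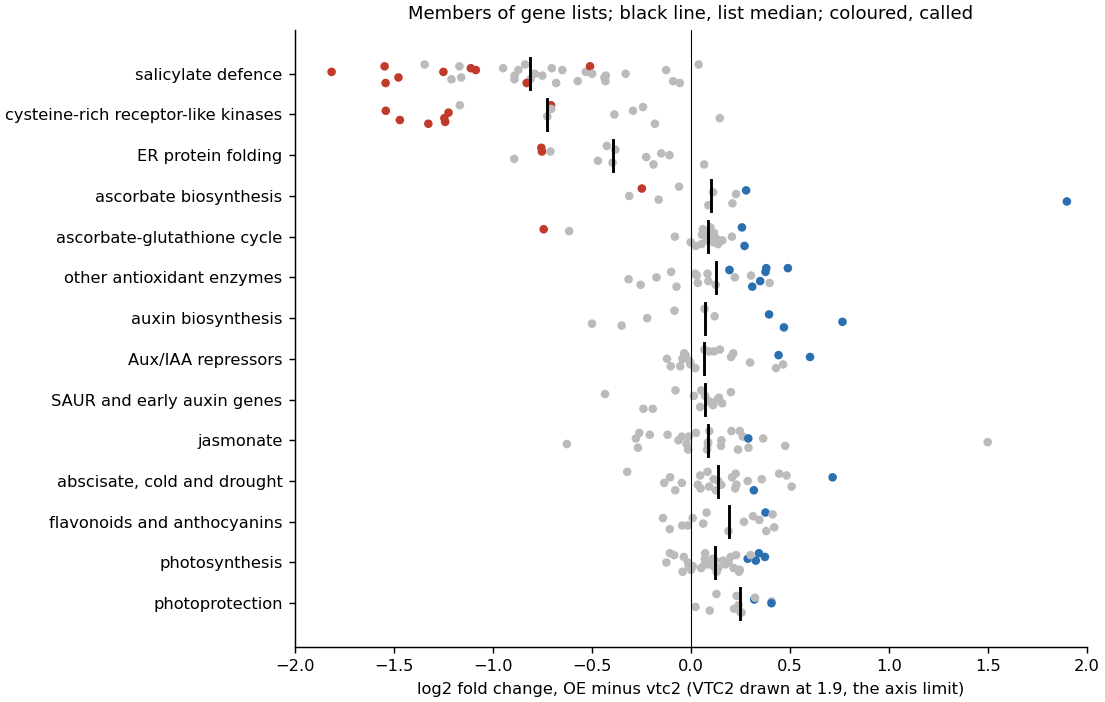
Each point is 1 tested gene of a list, placed by its log2 fold change, OE minus vtc2. Black lines are list medians and coloured points are called genes. The salicylate, receptor-like kinase and endoplasmic reticulum lists lie left of 0 with medians of -0.81, -0.73 and -0.40, and the photoprotection list lies right of 0 with a median of 0.25.

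The largest falls included genes outside the lists. AIG1, a GTPase gene known for induction by avirulent bacteria, was at 14.4, 20.2 and 39.2 FPKM in vtc2 and at 3.43, 12.9 and 1.96 in OE. CAX3, a vacuolar proton-calcium exchanger, was at 14.1, 21.0 and 25.3 in vtc2 and at 4.46, 7.53 and 3.87 in OE. AT3G15536, annotated as a non-coding RNA, was at 16.7, 28.7 and 42.9 in vtc2 and at 7.02, 9.65 and 4.87 in OE. No overlap between the genotypes was a condition for the largest falls. In all 3 genes the lowest vtc2 library was replicate 1 and the highest OE library replicate 2. Their differences were -2.06 (SE 0.49, adjusted p = 0.034), -1.76 (SE 0.22, adjusted p = 0.00213) and -1.84 (SE 0.31, adjusted p = 0.0108). The lipid-transfer-like gene AT3G22600, the cysteine-rich transmembrane gene AT1G56060, the membrane protein gene AT5G25260 and the EF-hand gene AT3G01830 were lower too, with differences from -1.74 to -1.61. The last 2 overlap other genes on the opposite strand, by 342 bases for AT5G25260 and 2067 for AT3G01830. So does AT5G27093 (-1.73, adjusted p = 0.0208), which shares 330 bases with GLR2.1, and the sources used here do not give the strand setting of the counting. Without OE replicate 1 the adjusted p became 0.13 for AIG1, 0.0569 for AT3G22600, 0.0814 for AT1G56060, 0.128 for AT5G25260 and 0.0843 for AT3G01830. It was 0.084 for AT5G27093 without vtc2 replicate 2. AIG1, AT5G25260 and AT3G01830 were also lost without vtc2 replicate 2, vtc2 replicate 3 or OE replicate 3, AT3G22600 without vtc2 replicate 2, and AT1G56060 and AT5G27093 without OE replicate 3.

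CPK27 (AT4G04700), a calcium-dependent protein kinase, set OE apart from the other 3 genotypes. It was at 2.70, 2.03 and 2.69 FPKM in vtc2 and at 0.0752, 0 and 0.0239 in OE. WT was at 1.96 to 2.44 and vtc4 at 1.78 to 2.36, so the 3 OE libraries alone were near 0. The difference from vtc2 was -1.74 (SE 0.12, adjusted p = 8.79e-06). CPK27 lies on chromosome 4 at 2385038 to 2388105 in TAIR10.1.

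In 4 genes OE was at the WT level and vtc2 at the level of vtc4. These genes and the next set were picked partly for how vtc2 differs from WT, with the same vtc2 libraries, so their direction here is no separate evidence. MRD1, known as a transcript that falls in methionine-overaccumulating plants, was at 0.454, 0.184 and 0 FPKM in vtc2 and at 32.3, 31.8 and 27.9 in OE. WT stood at 31.0 ± 0.92 and vtc4 at 0.286 ± 0.092 (SD, n = 3 each), so MRD1 was near 0 in both mutants and not in OE. The difference was 4.72 (SE 0.12, adjusted p = 2.29e-10). HEI10, a meiotic crossover factor, showed the same order (0.14 to 0.572 in vtc2, 2.01 to 2.90 in OE, 1.37, SE 0.13, adjusted p = 0.00033). It shares 1446 bases with MRD1 on the opposite strand and 839 identical bases with AT1G07887, so its value is uncertain.

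AT5G11330, an FAD-dependent oxidoreductase family gene, was at 19.8, 17.9 and 18.8 FPKM in vtc2 and at 46.7, 43.7 and 42.1 in OE. WT was at 42.9 to 45.3 and vtc4 at 17.7 to 20.7, so the gene fell into the same pair of levels (1.19, SE 0.069, adjusted p = 2.41e-06). AT1G64795 had the reverse order, at 118, 91.6 and 78.0 in vtc2 and listed at 0 in all 3 OE libraries (adjusted p = 3.32e-09). It was at 95.4, 127 and 96.1 in vtc4 and at 0, 0.836 and 0 in WT. Its 201-base transcript lies wholly inside ILA on the opposite strand. In AT1G75945, OE stayed with the mutants, at 10.3, 8.18 and 8.60 FPKM against 10.13, 10.06 and 7.33 in vtc2 (-0.02, adjusted p = 0.961), while WT was at 0, 0.272 and 0.

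**Figure D4:**
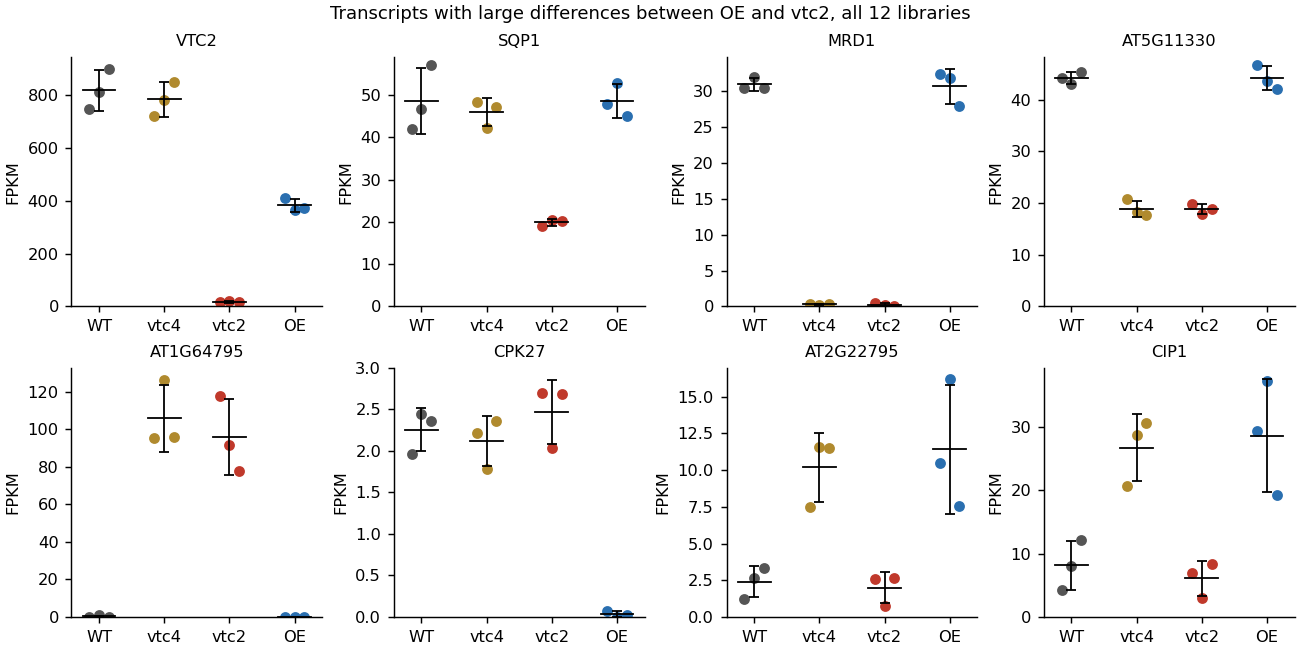
FPKM of 8 genes in the 12 libraries, as points with the mean and SD of 3 libraries per genotype. VTC2 in OE lies between vtc2 and WT. SQP1 is low in vtc2 alone, MRD1 and AT5G11330 are low and AT1G64795 is high in vtc2 and vtc4, CPK27 is near 0 in OE alone, and AT2G22795 and CIP1 are high in OE and vtc4.

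In a further set vtc2 alone differed from the other 3 genotypes. SQP1, a squalene epoxidase-like gene of sterol metabolism, was at 19.0, 20.4 and 20.2 FPKM in vtc2 and at 47.9, 52.9 and 45.0 in OE. MES18, a methyl esterase family gene, was at 6.92, 7.16 and 7.01 in vtc2 and at 20.7, 16.1 and 13.6 in OE. The long non-coding RNA AT3G05955 was at 3.25, 2.19 and 2.33 in vtc2 and at 0.323, 0 and 0.103 in OE. All 3 had no overlap, and OE was close to WT (48.6 ± 7.7 FPKM for SQP1 and 16.5 ± 4.14 for MES18, SD, n = 3 each, and 0 in all 3 libraries for AT3G05955). The differences were 1.25 (SE 0.10, adjusted p = 7.53e-05), 1.13 (SE 0.17, adjusted p = 0.00587) and -1.65 (SE 0.14, adjusted p = 0.000102). The RING-type gene AT1G24580 (1.1, adjusted p = 0.0131) and the hydrolase gene AT1G74290 (0.85, adjusted p = 0.0129) were higher in OE too, and both calls ended without OE replicate 1, that of AT1G74290 also without vtc2 replicate 2, with highest adjusted p of 0.0514 and 0.0564. MES18 shares 355 bases with a gene on the opposite strand, and AT1G74290 is 92.6% identical to AT1G74280 over 1098 bases.

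Most of the largest rises had another order of genotype means, with OE and vtc4 high and vtc2 and WT low. AT5G40450, an A-kinase anchor-like gene, was at 3.58, 1.09 and 4.096 FPKM in vtc2 and at 18.4, 38.1 and 8.71 in OE. CIP1, which encodes a protein that interacts with the light-signalling repressor COP1, was at 6.95, 2.99 and 8.38 in vtc2 and at 29.4, 37.2 and 19.3 in OE. AT2G22795 was at 2.57, 0.756 and 2.65 in vtc2 and at 10.47, 16.2 and 7.53 in OE. The OE libraries were above all vtc2 libraries in each gene, which was a condition for the largest rises. These OE values spread widely, with replicate 2 highest and replicate 3 lowest. The differences were 2.41 (SE 0.44, adjusted p = 0.0129), 2.1 (SE 0.36, adjusted p = 0.0108) and 2.07 (SE 0.33, adjusted p = 0.00793). In vtc4 the genes were at 12.2 to 18.9, 20.7 to 30.7 and 7.46 to 11.5 FPKM, and in WT at 2.82 to 4.76, 4.31 to 12.1 and 1.26 to 3.32. AT5G40450 shares 178 bases with MKK3, and CIP1 272 with another gene, on the opposite strand.

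The Tudor/PWWP domain gene AT5G40340 (1.93), the nuclear lamina-like gene LINC3 (1.49), AT5G60030 (1.46), the hydrolase-like gene AT4G26190 (1.44) and AT1G56660 (1.40) shared this order, with adjusted p from 0.0036 to 0.0403. For these 8 genes, grouped after their values were seen because vtc4 lay at least 0.5 above WT on the log2 scale, the annotated transcripts held 58.3 to 70.6% A and G (median 63.2%), against a median of 50.6% and a 5th to 95th percentile of 45.6 to 55.7% over 16828 tested genes. Their median length was 3859 bases against 1744. The labels number the libraries of WT and vtc2 from 1 to 6 and those of vtc4 and OE from 7 to 12, and the sources used here do not say what else this order stands for. The part of library order or base composition in these rises was not tested. The calls of AT5G40450, AT5G40340, LINC3 and AT5G60030 ended without OE replicate 1 (0.0551, 0.0559, 0.0532 and 0.0636), that of AT5G40450 also without vtc2 replicate 2, and that of AT1G56660 without any 1 of 10 libraries (up to 0.142).

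Auxin biosynthesis held 3 calls among 9 tested genes (33.3%, against 5.39% of all tested genes), all higher in OE. TAA1 and TAR2 belong to a family of aminotransferases that convert tryptophan to indole-3-pyruvate. TAA1, the founding member, was at 4.67, 5.44 and 4.90 FPKM in vtc2 and at 7.80, 5.80 and 8.57 in OE. TAR2 was at 3.89, 3.06 and 2.89 in vtc2 and at 4.13, 4.84 and 4.86 in OE. AT1G34060, listed as TAR4, is annotated only as a pyridoxal phosphate-dependent transferase, and the annotation does not give its reaction. It was at 2.37, 2.40 and 3.06 in vtc2 and at 4.82, 5.80 and 4.80 in OE. None overlapped, although OE replicate 2 of TAA1 and OE replicate 1 of TAR2 were close to the highest vtc2 library. The differences were 0.47 (SE 0.11, adjusted p = 0.0315), 0.40 (SE 0.10, adjusted p = 0.0455) and 0.77 (SE 0.13, adjusted p = 0.0109). WT was at 6.81 ± 0.26 for TAA1, 5.34 ± 0.57 for TAR2 and 4.75 ± 1.09 for AT1G34060, and vtc4 at 5.49 ± 0.18, 5.13 ± 0.14 and 4.16 ± 0.10 (SD, n = 3 each).

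Of the 11 listed YUC genes, whose flavin monooxygenases complete the route to auxin, YUC6 alone passed the filter (2.05, 2.04 and 1.82 FPKM in vtc2, 2.00, 2.09 and 2.26 in OE, adjusted p = 0.677). The list had 5 positive and 4 negative differences, the lowest at -0.50. Its number called lower was 0, but 1 with library weights, without WT replicate 2 or without WT replicate 3. The median of the list was 0.07, and it was 0.036 on the TPM scale and -0.03 with quantile normalization. Averaged over the list and set against WT, the genotypes overlapped. Here vtc2 was at -0.22, -0.09 and -0.14 and OE at -0.09, -0.01 and -0.12. The call of AT1G34060 held without each library (up to 0.0495). That of TAA1 ended without any 1 of 5 of them (each vtc2 library, OE replicate 1 or OE replicate 3, up to 0.125). The call of TAR2 ended without any 1 of 9 (up to 0.147) and on the TPM scale (0.0645).

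Among genes that act downstream of auxin, 2 of 21 Aux/IAA repressor genes were called, both higher in OE. This was 9.52% of the list, against 5.39% of all tested genes. AXR3, also known as IAA17, was at 33.2, 36.5 and 35.5 FPKM in vtc2 and at 55.7, 54.5 and 51.0 in OE. IAA2 was at 97.4, 76.1 and 107 in vtc2 and at 130, 127 and 121 in OE. Neither overlapped (0.60, SE 0.068, adjusted p = 0.00121 and 0.44, SE 0.11, adjusted p = 0.0338), and WT lay near OE at 50.9 ± 3.87 and 118 ± 8.15 (SD, n = 3 each). The call of IAA2 ended without vtc2 replicate 2 or any OE library (up to 0.124) and on the TPM scale (0.0516). The medians were 0.07 for Aux/IAA genes, 0.07 for 15 SAUR and early auxin genes and -0.10 for 10 conjugation and catabolism genes. On the TPM scale, where the median of all genes moved to -0.053, they were 0.015, 0.016 and -0.153. Limma called 0 genes in the last 2 lists and 0 of 7 tryptophan biosynthesis genes.

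Other hormone and metabolic lists held few calls. CYP707A1, which breaks down abscisate, was at 5.13, 4.62 and 3.89 FPKM in vtc2 and at 8.25, 7.66 and 8.33 in OE, without overlap (0.72, SE 0.088, adjusted p = 0.0017), and WT was at 8.12 ± 0.052 (SD, n = 3). With the dehydrin gene COR47 (0.32, adjusted p = 0.0203) it made 2 calls among 25 abscisate, cold and drought genes. The jasmonate repressor JAZ6 (0.29, adjusted p = 0.0251) was the 1 call of 27 jasmonate genes, and the chalcone synthase TT4 (0.38, adjusted p = 0.034) the 1 of 15 flavonoid genes. The clock genes CCA1 (0.21, adjusted p = 0.0356) and CDF1 (0.46, adjusted p = 0.0251) were 2 of 16, both higher in OE. The shares called were 8.0% of abscisate, cold and drought, 3.7% of jasmonate, 6.67% of flavonoid and 12.5% of clock genes. Over all tested genes the share was 5.39%. The gibberellin-activating gene GA3OX1 was higher in OE as well (0.47, adjusted p = 0.0417). Among 15 cytosolic heat shock genes Hsp70-2 was lower (14.5, 23.1 and 34.3 FPKM in vtc2, 5.64, 11.6 and 5.92 in OE, -1.50, adjusted p = 0.0129) and Hsp70b higher (0.36, adjusted p = 0.0379). These calls were 13.3% of the heat shock list, which had 7 positive and 8 negative differences and a median of -0.014.

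Of these genes CYP707A1 alone kept its call without each library in turn (up to 0.0143). Each of the others was lost without OE replicate 1 and without vtc2 replicate 2. The highest adjusted p were 0.0933 for CDF1, 0.0885 for COR47, 0.114 for JAZ6, 0.132 for TT4, 0.14 for CCA1, 0.15 for GA3OX1, 0.0628 for Hsp70-2 and 0.125 for Hsp70b. On the TPM scale the calls of CCA1 (0.152), COR47 (0.0544), JAZ6 (0.0506), Hsp70b (0.0692) and GA3OX1 (0.0513) ended, and with quantile normalization those of CCA1 (0.416) and GA3OX1 (0.0563). Limma called 0 genes among 20 rapid stress and touch, 15 senescence, 10 iron, 17 aliphatic glucosinolate, 17 indole glucosinolate and camalexin, 26 cell wall expansion and 8 guard cell genes, with list medians from -0.13 to 0.14.

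WT and vtc4, which the contrast did not use for its difference, were set beside the 912 called genes as a description. The WT mean was nearer to OE than to vtc2 for 759 of them (83.2%), against 63.2% of all tested genes. The vtc4 mean was nearer to OE for 765 (83.9%), against 65.4%. vtc4 lay below WT in 64.1% of genes called higher in OE, in 52.3% of those called lower and in 54.4% of all tested genes. By the nearness of means vtc4, the other mutant of the ascorbate route, stood for most called genes on the side of OE rather than of vtc2. It did so for most of all tested genes too (65.4%). vtc4 was at least 2-fold above WT in 11 of the 526 genes called higher, against 34 of all 16931.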

How the data were processed

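Poly(A) RNA of 12 Arabidopsis rosette pools was sequenced from stranded libraries as 75-base read pairs, per the labels' protocols. The authors deposited 1 table of FPKM values per gene and library. Per the submitters' processing notes, Trimmomatic 0.36, HISAT2 2.1.0, Cufflinks 2.2.1, Cuffdiff and the TAIR10 build were used. The annotation, strand setting and normalization option are not given in the sources used here. FPKM is normalized for length and library, so read depth is unknown and no count model was used.

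Values were tested as log2(FPKM + 1) with limma 3.58.1 in R 4.3.3. The model had genotype as its term, 12 libraries, 8 residual degrees of freedom and an intensity trend. The filter kept genes that reached an FPKM of 1 in 3 or more of the 6 OE and vtc2 libraries, and calls used a Benjamini-Hochberg adjusted p below 0.05. On simulated data for 16931 genes with 200 changed, 184 were called, with 8 unchanged genes called. The simulated noise was independent and normal with the model's own spread, and changes were planted only in genes above a set mean level. The smallest planted change exceeded the median change among called genes. Uneven libraries were not simulated, so these counts do not measure the power or error of the real calls. Genes named were VTC2, the 12 largest rises and 12 largest falls of called genes whose groups did not overlap and whose mean FPKM reached 1, and up to 4 called genes of each of 31 lists. Other named genes were chosen after their values were seen. The members and lists were chosen with earlier results of these data known, and list counts are descriptions. ATCG00810, a named rise, has no annotation under that ID in the reference used and is not described further. IDs were matched to TAIR10.1 for 32217 of 33618 genes, and similar copies were searched with blastn 2.17.0. A total of 25 alternatives were run, 12 of which left out 1 library. The result of 1 listed gene is not reported here.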

Additional observations from a re-analysis of the deposited data

How the results depend on the processing

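The number of called genes was the result that moved most. It was 154 (115 higher, 39 lower) with the OE and vtc2 libraries alone and 2988 (1527 higher, 1461 lower) with library weights. It ranged from 147 to 1329 when 1 library was left out, with 96 to 677 higher and 51 to 671 lower. Rescaling to TPM gave 335 higher and 563 lower. A pairing by replicate number could be fitted, but the labels do not say that the numbers mark a shared day or batch. The correlation of deviations was 0.091, 0.162 and -0.217 for the same numbers. Replicate 3 of OE correlated best with replicate 1 of vtc2 (0.348). With 3 libraries per genotype these values cannot decide whether the libraries were paired. With a replicate block 934 genes were called (560 higher, 374 lower), and with the block and the 6 libraries alone 13 (9 higher, 4 lower).

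No named called gene changed sign in any alternative. List medians moved by more than the replicate spread in few cases. Rescaling to TPM moved the median over all tested genes from -0.003 to -0.053, so its list medians are to be read beside that shift. It gave 0.05 for ascorbate biosynthesis, 0.017 for ascorbate regulators, 0.073 for other antioxidant enzymes, -0.082 for the clock and 0.191 for photoprotection. Quantile normalization gave -0.031 for auxin biosynthesis, -0.083 for the clock, 0.019 for photosynthesis and 0.147 for photoprotection. Library weights gave 0.057 for ascorbate biosynthesis, 0.146 for other antioxidant enzymes, 0.126 for flavonoids and -0.084 for iron. A mean FPKM of at least 5 gave -0.051 for auxin biosynthesis, and a pseudocount of 0.1 gave 0.19 for gibberellin and ethylene synthesis. With 1 library left out the medians ranged from 0.017 to 0.111 for ascorbate regulators, 0.093 to 0.175 for other antioxidant enzymes, -0.161 to -0.045 for auxin conjugation, -0.045 to 0.119 for SAUR genes, 0.121 to 0.227 for flavonoids, -0.078 to 0.048 for iron 0.056 to 0.16 for guard cell genes and 0.07 to 0.193 for gibberellin and ethylene synthesis. The cause was not tested.

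The shares of genes with vtc4 below WT were recomputed over the fixed sets of 526 and 386 genes. Among the 526 called higher the share was 56.7% with TPM, 56.5% after quantile normalization and 53.8% under library weights. Among the 386 called lower it was 46.4% with TPM. With 1 library left out these shares ranged from 51.7 to 68.3% and from 40.9 to 61.7%. Of the 69 named called genes besides VTC2, 62 lost their call with the block and 6 libraries alone, 47 with the 6 libraries alone, 17 without the filter and 10 with TPM. FPKM values carry no read counts, so the precision of low values is unknown.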

Other observations

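Called genes were spread over the nuclear genome: 4.92 to 5.93% of the tested genes of each of the 5 chromosomes were called. Within 1 Mb of VTC2 on chromosome 4, 16 of 391 tested genes were called higher and 6 lower in OE (5.63%), close to the share over all tested genes. The jasmonate-responsive defensin gene PDF1.2, chosen after its values were seen, had a difference of 1.5 that was not called by limma (adjusted p = 0.216).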
